A study of Homo sapiens with 4 samples.

Results

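MicroRNA precursor genes are described here across 4 arrays of human prostate cancer cells. Every gene was taken whose symbol begins with MIR or MIRLET followed by a digit, without the host transcripts whose symbols end in HG. That gave 705 of the 14006 genes with a named probe. The arrays read total RNA with probes for whole transcripts, so a value stands for the primary transcript, the precursor or an overlapping host RNA. Mature microRNA was not measured.

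The study compared prostate cancer cells that differ in the laminin-binding glycan of alpha-dystroglycan, which the antibody IIH6C4 recognises. PC3-H and PC3-L were obtained with that antibody from PC3 cells, which came from a metastasis in bone and grow without androgen, and are labelled high and low for the glycan. LNCaP, from a metastasis in a lymph node, is labelled androgen-dependent and high for the glycan. The fourth culture, LNCaP-AI, is labelled low, and was derived from LNCaP in RPMI1640 with charcoal-stripped serum, which is poor in steroids, while its description adds conditioned medium of human perineural cells. PC3-H and LNCaP carry the label of low motility and invasion, PC3-L and LNCaP-AI that of high motility and invasion. All were grown in RPMI1640 with serum and antibiotics. No time of culture is given.

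The labels disagree in places. In the free-text descriptions PC3-L is the culture high for the glycan and PC3-H the low one, and LNCaP is moderate for it and androgen-independent. The titles and source names were followed. For KLK3, the gene of prostate-specific antigen, the intensity was 1781 on LNCaP and 59.0 to 63.4 on the other arrays, and FOLH1, which encodes prostate-specific membrane antigen, had 944 against 23.0 to 24.2. AXL, a receptor tyrosine kinase, had 47.4 on LNCaP against 609 to 1015. The LNCaP-AI-labelled array thus went against its line label, and is named by that label throughout. Of the markers of other cell types, VWF (endothelium), LUM (fibroblasts) and SOX10 (neural crest) were measured, none above 60.8 on any array. Each group was 1 array, so a difference between arrays has no replicate check and no p-value, and the number of arrays limits the precision. In bulk RNA, fewer cells expressing a gene and less RNA per cell cannot be told apart.

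A microRNA gene is transcribed as a long primary transcript, often from the intron of a host gene or from its own non-coding transcript. Drosha with DGCR8 releases the hairpin precursor in the nucleus, exportin-5 carries it to the cytoplasm, and Dicer cuts it to the mature strand that Argonaute loads. The seed at the 5′ end of that strand pairs with target messenger RNAs, so genes with the same seed share many targets. In prostate and other epithelia, the miR-200 family is known for repressing ZEB1 and ZEB2, let-7 for repressing HMGA2, and miR-221 and miR-222 for repressing the cell cycle inhibitor CDKN1B.

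The mature strands below belong to the members on which the results turn, and to the family members they are compared with. They are RefSeq sequences (GRCh38.p14), written 5′ to 3′ with the seed, bases 2 to 8, in capitals. The RefSeq table gave a mature sequence for 645 of the 705 members and a hairpin for 586, and 45 members had neither. In the let-7 group the seed is the same while the rest of the strand varies.
let-7a: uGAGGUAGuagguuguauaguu
let-7c: uGAGGUAGuagguuguaugguu
let-7i: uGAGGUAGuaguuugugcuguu
miR-98-5p: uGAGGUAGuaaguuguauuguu
miR-4500: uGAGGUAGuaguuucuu
miR-221-3p: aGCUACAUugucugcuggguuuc
miR-222-3p: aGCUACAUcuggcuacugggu
miR-200a-3p: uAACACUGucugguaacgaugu
miR-141-3p: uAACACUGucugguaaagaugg
miR-200c-3p: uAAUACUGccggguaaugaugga
miR-205-5p: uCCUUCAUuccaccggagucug
miR-99a-5p: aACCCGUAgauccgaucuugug
miR-125b-5p: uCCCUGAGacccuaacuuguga
miR-181b-5p: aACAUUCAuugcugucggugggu
miR-3189-3p: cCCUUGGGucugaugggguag
miR-548c-3p: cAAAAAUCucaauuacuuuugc
miR-1299: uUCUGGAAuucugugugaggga
miR-644a: aGUGUGGCuuucuuagagc
miR-4737: aUGCGAGGaugcugacagug

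Most microRNA genes were dim. The mean over the 4 arrays had a median intensity of 34.6 over the 705 members and 59.2 over all named genes. The arrays differed little in this: the median member stood at 34.3 on PC3-H, 35.5 on PC3-L, 33.7 on LNCaP and 34.5 on the LNCaP-AI-labelled array. The lowest value of the whole table was 17.6, so many members lay near the bottom of the scale. A level at the 40th percentile of all probes, an intensity of 33.6 to 34.8 depending on the array, was used as the filter. On all 4 arrays 287 members (40.7%) reached it, against 67.8% of all named genes, and 279 members (39.6%) reached it on none, against 17.8%. A mean of 100 or more was found for 56 members (7.94%) and for 29.2% of all named genes. Members also varied less across the arrays, with a median log2 range of 0.32 against 0.46, and 27 members (3.83%) had a range past 2-fold against 19.1% of all named genes. A dim gene has less room for a fold difference on this scale, and its part in these shares was not tested.

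Counts of members past 2-fold were below the share of all named genes in every pair of arrays compared. Differences are log2 of the intensity plus 1, over genes whose value on either array reached the filter. From PC3-H to PC3-L, 398 members passed the filter, 9 were higher and 4 lower past 2-fold, together 3.27%. Of all named genes 12.3% were past 2-fold, 8.58% higher and 3.76% lower. For the LNCaP-AI-labelled array against LNCaP, 389 passed, 3 were higher and 8 lower, together 2.83%, against 10.6% of all named genes (5.45% higher and 5.13% lower). Between the high-glycan arrays, 385 passed, 5 were higher on LNCaP than on PC3-H and 4 lower, together 2.34%, against 9.95% (5.46% higher and 4.49% lower). Between the low-glycan arrays, 402 passed, 1 was higher on the LNCaP-AI-labelled array than on PC3-L and 4 were lower, together 1.24%, against 2.78% (0.831% higher and 1.95% lower). A pseudocount of 16 in place of 1, which shrinks the folds of dim genes, left 9, 5, 4 and 3 members past 2-fold in the order of these pairs. In any of the 4 pairs 23 of 426 members went past 2-fold (5.40%), where 21.4% of all named genes did. The median log2 difference of the members was −0.05 (PC3 pair) and 0.03 (LNCaP pair), beside −0.02 and 0.00 for all named genes.

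**Figure D1:**
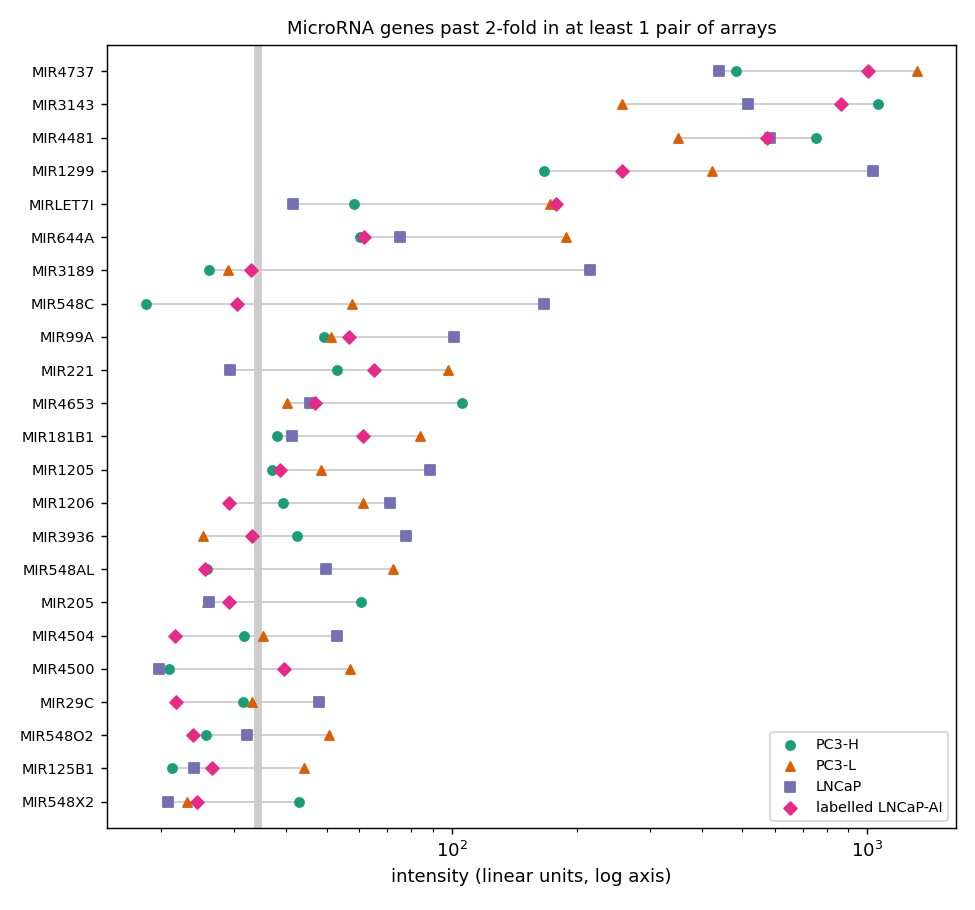
Intensity (log axis) of the 23 microRNA genes past 2-fold in any of the 4 pairs, 1 point per array and no error bars, since each group had 1 array; the grey band marks the filter level. MIR4737 and MIR3143 lie at the bright end, and MIR3189, MIR548C and MIR1299 stand out on the LNCaP array.

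Of the let-7 family, which is known for restraining growth genes such as HMGA2, 10 of 12 listed genes were measured. Past the filter were 8 in each of the PC3 and LNCaP pairs, where 12.3% and 10.6% of all named genes were past 2-fold. These shares also stand beside the list counts that follow. In each pair 1 of the 8 was past 2-fold. That gene was MIRLET7I (chr12:62603686-62603769, plus strand), in the transcript MIRLET7IHG, which had no named probe here. Its intensity was 58.3 on PC3-H, 172 on PC3-L, 41.6 on LNCaP and 178 on the LNCaP-AI-labelled array. Both low-glycan arrays were thus above both high-glycan arrays, 2.92-fold in the PC3 pair (log2 1.54) and 4.21-fold in the LNCaP pair (log2 2.07). The low-glycan arrays themselves differed by 0.05 on the log2 scale.

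No other let-7 gene was past 2-fold in these pairs, and their directions were mixed. MIRLET7A1, at the head of the chromosome 9 cluster, had 69.4 on PC3-H, 40.4 on PC3-L, 64.0 on LNCaP and 47.8 on the LNCaP-AI-labelled array, with the low-glycan arrays lower. MIRLET7A3 had 76.9, 62.1, 114 and 87.9 in that order, and MIRLET7E had 81.8, 62.9, 77.3 and 68.9. MIR98, an X-linked let-7 gene, had 100 on PC3-H, 90.9 on PC3-L, 75.8 on LNCaP and 76.8 on the LNCaP-AI-labelled array. MIRLET7G stayed between 32.0 and 42.3 and MIRLET7F1 between 22.5 and 28.7. On the low-glycan side, like MIRLET7I, lay MIRLET7A2, with 29.3, 38.5, 19.6 and 22.9 (log2 0.38 in the PC3 pair; below the filter in the LNCaP pair). MIRLET7D had 55.1, 57.8, 52.0 and 59.2, with log2 differences of 0.07 and 0.18. The median log2 difference of the list was −0.22 (PC3 pair) and −0.14 (LNCaP pair), opposite in sign to MIRLET7I.

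MIR4500, which carries the let-7 seed without the let-7 name (chr13:87618665-87618740, minus strand), had 20.8 on PC3-H, 57.0 on PC3-L, 19.8 on LNCaP and 39.6 on the LNCaP-AI-labelled array. It was higher on both low-glycan arrays, 2.66-fold in the PC3 pair (log2 1.41, and 0.99 with a pseudocount of 16) and 1.95-fold, short of 2-fold, in the LNCaP pair (log2 0.96). Its host transcript MIR4500HG had 24.6, 32.2, 23.4 and 31.0, below the filter on every array. The seed GAGGUAG was shared by 12 measured members, of which MIRLET7I and MIR4500 were the 2 past 2-fold in a pair. In any of the 4 pairs, 5.40% of members past the filter and 21.4% of all named genes were past 2-fold. In all, 103 seeds were shared among 212 members.

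**Figure D2:**
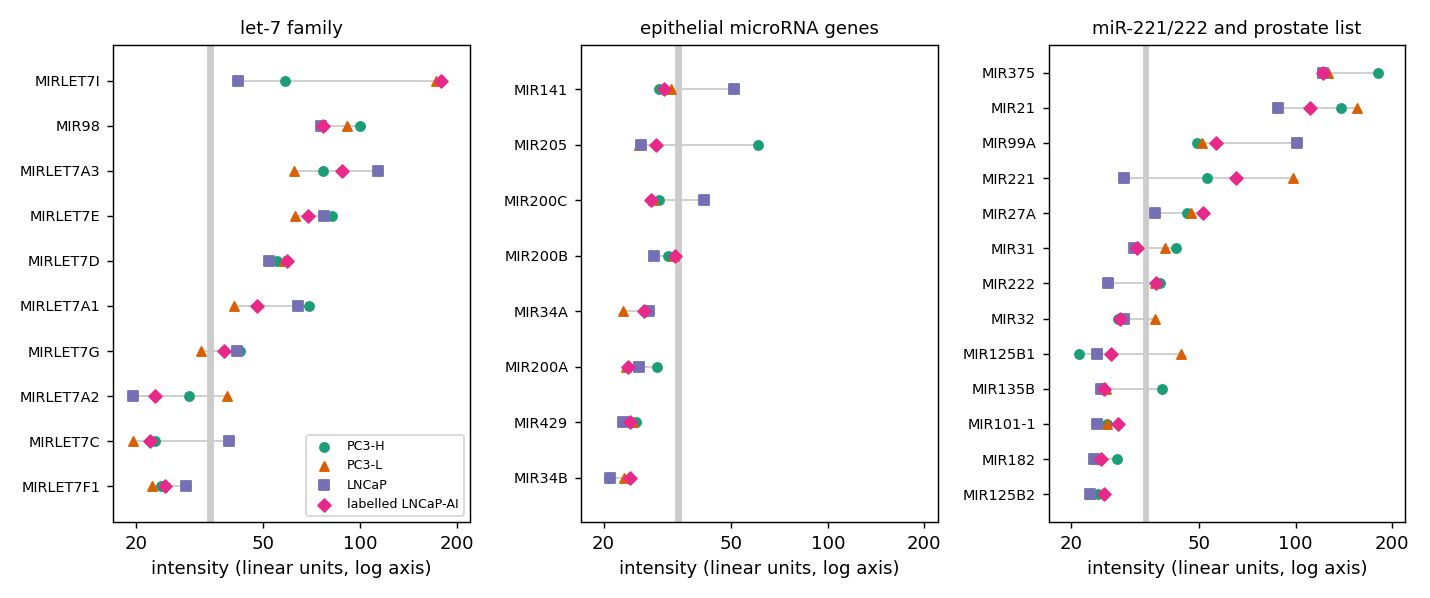
Intensity (x axis, log axis) of measured genes of the let-7 family, the epithelial list, and MIR221 and MIR222 with the prostate list, 1 point per gene and array, a line over each gene's range and no error bars; the grey band marks the filter level. MIRLET7I is highest on PC3-L and the LNCaP-AI-labelled array, MIR205 on PC3-H, and MIR221 is lowest on LNCaP.

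MIR221 and MIR222 lie next to each other on the X chromosome (chrX:45746157-45746266 and chrX:45747015-45747124, minus strand) and share the seed GCUACAU. MIR221 had 53.0 on PC3-H, 97.9 on PC3-L, 29.2 on LNCaP and 65.1 on the LNCaP-AI-labelled array. Its low-glycan arrays were the higher ones in both pairs, 1.83-fold in the PC3 pair (log2 0.87) and 2.19-fold in the LNCaP pair (log2 1.13, and 0.84 with a pseudocount of 16). MIR222 was dimmer, with 37.7, 36.5, 25.95 and 36.8 in that order, and differed by −0.05 and 0.49 on the log2 scale. LNCaP was the lowest array for both genes. In the LNCaP pair MIR221 was the 1 of the 2 past 2-fold, and in the PC3 pair neither was. Their host transcript MIR222HG had no named probe.

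The epithelial list, known for marking epithelial identity, had 8 of 11 genes measured, between 20.8 and 60.6 on the 4 arrays. The cluster on chromosome 1 was dim throughout: MIR200A ran from 23.5 to 29.4, MIR200B from 28.7 to 33.4 and MIR429 from 23.0 to 25.2, and none reached the filter. In the cluster on chromosome 12, MIR200C had 29.8, 28.6, 41.2 and 28.0, and MIR141 had 29.7, 32.4, 51.1 and 30.9, in the order PC3-H, PC3-L, LNCaP and labelled LNCaP-AI. Both reached the filter on LNCaP alone, and neither was past 2-fold against any array compared. MIR34A, a known target of p53, stayed between 22.9 and 27.7, and MIR34B between 20.8 and 24.2.

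MIR205, which is known from basal epithelial cells of the prostate (chr1:209432133-209432242, plus strand), was highest on PC3-H. Its intensity was 60.6 on PC3-H, 25.9 on PC3-L, 26.1 on LNCaP and 29.2 on the LNCaP-AI-labelled array. It was therefore 2.29-fold lower on PC3-L than on PC3-H (log2 −1.20) and 2.27-fold lower on LNCaP (log2 −1.18), with the 3 lower arrays below the filter. With a pseudocount of 16 both differences were short of 2-fold (log2 −0.87 and −0.86). It was the 1 epithelial gene past the filter in the PC3 pair, and 0 of 2 were past 2-fold in the LNCaP pair.

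Of the list tied to androgen signalling and prostate cancer, 12 of 17 genes were measured. In the PC3 pair 8 passed the filter and 1 was past 2-fold, MIR125B1, and in the LNCaP pair 0 of 5 were. The shares of all named genes were 12.3% and 10.6%. MIR125B1 (chr11:122099757-122099844, minus strand), one of the genes for miR-125b, had 21.2 on PC3-H, 44.0 on PC3-L, 23.98 on LNCaP and 26.5 on the LNCaP-AI-labelled array. Only PC3-L reached the filter, 2.03-fold above PC3-H (log2 1.02, and 0.69 with a pseudocount of 16). The host MIR100HG had 53.0, 115, 33.6 and 62.9, also highest on PC3-L, with log2 differences of 1.10 (PC3 pair) and 0.89 (LNCaP pair). MIRLET7A2, in the same host, differed by less than 2-fold in each pair compared.

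The chromosome 21 locus, in the transcript MIR99AHG, was brightest on LNCaP. MIR99A (chr21:16539089-16539169, plus strand) had 49.4 on PC3-H, 51.2 on PC3-L, 101 on LNCaP and 56.5 on the LNCaP-AI-labelled array, and was 2.02-fold higher on LNCaP than on PC3-H (log2 1.02, and 0.84 with a pseudocount of 16). MIRLET7C (chr21:16539828-16539911, plus strand) had 23.0, 19.6, 38.9 and 22.1, with a log2 difference of −0.79 in the LNCaP pair. MIR125B2, of the same host, stayed between 22.9 and 25.3. The host transcript had 24.7, 22.3, 314 and 23.2, so that it differed by −3.70 on the log2 scale in the LNCaP pair where MIR99A differed by −0.83.

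The remaining genes of that list stayed within 2-fold in each pair. MIR21, a widely expressed gene known for repressing PDCD4, had 138 on PC3-H, 156 on PC3-L, 88.2 on LNCaP and 111 on the LNCaP-AI-labelled array. MIR375, known from neuroendocrine and luminal cells, had 180, 126, 122 and 122. MIR31 ran from 31.3 to 42.3, MIR32 from 27.9 to 36.6 and MIR135B from 24.7 to 38.4. MIR101-1 and the cluster of MIR182, MIR96 and MIR183 were below the filter on every array. The MIR31 host transcript MIR31HG had 58.3, 57.2, 26.1 and 56.2, lowest on LNCaP. From PC3-H to LNCaP the transcript differed by −1.13 and MIR31 by −0.42 on the log2 scale, and in the LNCaP pair MIR31 was below the filter.

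No gene of the cell cycle clusters was past 2-fold. Of the miR-17-92 cluster and its paralogues 3 of 15 genes were measured, all in the MIR106B cluster of chromosome 7: MIR106B between 51.7 and 75.8, MIR93 between 38.4 and 47.1 and MIR25 between 42.8 and 52.8, with 0 past 2-fold in either pair. Of the miR-23, miR-27 and miR-24 genes, 5 of 6 were measured and 0 were past 2-fold, with a median log2 difference of −0.14 (PC3 pair) and 0.54 (LNCaP pair). In the chromosome 19 cluster LNCaP was the lowest array for each gene. MIR23A had 44.7 on PC3-H, 43.6 on PC3-L, 31.0 on LNCaP and 47.4 on the LNCaP-AI-labelled array. MIR27A had 45.9, 47.1, 36.5 and 51.3, and MIR24-2 had 75.1, 63.0, 38.2 and 73.9 (log2 0.93 in the LNCaP pair). The related MIR23B had 55.0 to 64.2 and MIR27B 31.7 to 46.5. MIR210, known as a hypoxia-induced gene, stayed between 126 and 146.

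Marker microRNAs of other tissues were also measured. Of 12 smooth muscle and stromal genes 4 were measured, with a summed intensity of 105 to 116 per array. Of 8 blood and endothelial genes 5 were measured, with a sum of 159 to 191, and of 15 neural and liver genes 6, with a sum of 207 to 239. None of these genes was past 2-fold in the PC3 or the LNCaP pair. Among them MIR155, known from activated immune cells, had 30.1 on PC3-H, 43.0 on PC3-L, 30.7 on LNCaP and 60.6 on the LNCaP-AI-labelled array, a log2 difference of 0.96 in the LNCaP pair. MIR146A, an immune gene too, had 60.1, 32.2, 37.4 and 38.9, a log2 difference of −0.88 in the PC3 pair.

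MIR3189 and MIR548C, the members with the widest log2 ranges over the 4 arrays, were brightest on LNCaP, as were the genes that hold them. MIR3189 (chr19:18386562-18386634, plus strand) lies in GDF15, which encodes a secreted stress cytokine. MIR3189 had 26.1 on PC3-H, 28.9 on PC3-L, 215 on LNCaP and 32.9 on the LNCaP-AI-labelled array. LNCaP was 7.96-fold above PC3-H (log2 2.99), and the LNCaP-AI-labelled array 6.37-fold below LNCaP (log2 −2.67), while the other 3 arrays were below the filter. GDF15 had 147, 69.9, 2683 and 60.0, and differed by −5.46 on the log2 scale in the LNCaP pair.

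MIR548C, of the MIR548 family that arose from transposable elements, lies in RASSF3, which encodes a Ras-association domain protein. Its intensity was 18.4 on PC3-H, 57.5 on PC3-L, 166 on LNCaP and 30.4 on the LNCaP-AI-labelled array. PC3-L was 3.02-fold above PC3-H (log2 1.59), and the LNCaP-AI-labelled array 5.32-fold below LNCaP (log2 −2.41). LNCaP was 8.64-fold above PC3-H (log2 3.11). RASSF3 had 65.4, 97.2, 472 and 70.9, the same order of arrays, with log2 differences of 0.57 and −2.72. Most MIR548 genes were dim: the 21 measured, MIR548C among them, had a median intensity of 27.8. Their median log2 range over the arrays was 0.48, against 0.32 for all members.

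MIR644A (chr20:34466325-34466418, plus strand) lies in ITCH, which encodes a ubiquitin ligase. MIR644A had 60.1 on PC3-H, 189 on PC3-L, 75.3 on LNCaP and 61.6 on the LNCaP-AI-labelled array, and was 3.11-fold higher on PC3-L than on PC3-H (log2 1.63). ITCH had 429, 1010, 335 and 528, and was also highest on PC3-L (log2 1.23 in the PC3 pair). MIR181B1 (chr1:198858873-198858982, minus strand), of the miR-181 family, had 37.9, 83.8, 41.3 and 61.1, with log2 differences of 1.12 (0.89 with a pseudocount of 16) and 0.55, and its host MIR181A1HG had 61.2, 104, 40.6 and 68.8. Of the other miR-181 genes, MIR181D stayed between 104 and 114, MIR181C between 58.2 and 68.4, MIR181A2 between 24.8 and 32.2 and MIR181B2 between 24.5 and 34.1.

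The brightest members included genes with no host that was both measured and assigned to their strand. For 134 members a host's strand was not given, and such a host was not assigned. MIR4737 (chr17:60043025-60043105, minus strand), inside HEATR6, was the brightest, with a mean of 812. It had 484 on PC3-H, 1317 on PC3-L, 439 on LNCaP and 1007 on the LNCaP-AI-labelled array. Both low-glycan arrays were above both high-glycan arrays, 2.72-fold in the PC3 pair (log2 1.44) and 2.29-fold in the LNCaP pair (log2 1.20). HEATR6 ran in the same order of high and low arrays with smaller differences, 175, 250, 141 and 208 (log2 0.51 and 0.55).

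MIR3143 had a mean of 675 and lay outside every other gene of the gene table, 64 bases from the histone gene H2AC12 and 768 bases from H2BC12, neither of which had a named probe. Its hairpin sequence is shown because the locus sits so close to a histone gene (chr6:27147626-27147688, plus strand, in lower case throughout).
MIR3143 hairpin: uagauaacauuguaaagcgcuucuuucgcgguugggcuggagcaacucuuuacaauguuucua
MIR3143 had 1061 on PC3-H, 257 on PC3-L, 517 on LNCaP and 864 on the LNCaP-AI-labelled array. PC3-L was the lowest array, 4.12-fold below PC3-H (log2 −2.04), and the LNCaP-AI-labelled array was 3.36-fold above PC3-L (log2 1.75). In the LNCaP pair the difference was 0.74.

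MIR1299 (chr9:40929010-40929092, minus strand), also outside other genes, had 167 on PC3-H, 424 on PC3-L, 1034 on LNCaP and 257 on the LNCaP-AI-labelled array. It was 2.53-fold higher on PC3-L than on PC3-H (log2 1.34) and 4.01-fold lower on the LNCaP-AI-labelled array than on LNCaP (log2 −2.004). LNCaP was 6.16-fold above PC3-H (log2 2.62). MIR4481, on the strand opposite to CAMK1D, had 754, 350, 582 and 574 and was 2.15-fold lower on PC3-L than on PC3-H (log2 −1.11). MIR574 had 624, 359, 569 and 501, with no pair past 2-fold.

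The other bright members moved little. MIR663B, MIR502, MIR941-1, MIR3907, MIR4442, MIR4519 and MIR4732 had means of 224 to 420, and log2 ranges over the 4 arrays of 0.24 to 0.51. PC3-L was the lowest array for 9 of the 12 brightest members and for 28 of the 56 with a mean of 100 or more. Over all 705 members it was the lowest for 218, against 162 for PC3-H, 197 for LNCaP and 128 for the LNCaP-AI-labelled array. The median of all probes was also lowest on PC3-L, 39.8 against 40.8 to 41.2. Yet 29.3% of all named genes reached 100 on PC3-L, against 26.4% to 27.6% on the other arrays. The lowest array was not counted over all named genes, and the part of processing was not tested.

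The remaining members past 2-fold were dim on most arrays. MIR4653 (chr7:101159473-101159555, plus strand), in AP1S1, had 106 on PC3-H against 40.2, 45.5 and 47.0 on PC3-L, LNCaP and the LNCaP-AI-labelled array, and was 2.59-fold lower on PC3-L (log2 −1.37). MIR548AL, which lay 804 bases from PGM2L1, had 25.7, 72.1, 49.9 and 25.5, and was 2.74-fold higher on PC3-L than on PC3-H (log2 1.45). PGM2L1 itself stayed between 48.0 and 64.1. MIR3936 had 42.5, 25.2, 77.5 and 33.0, highest on LNCaP.

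In the LNCaP pair 4 more dim genes were below LNCaP on the LNCaP-AI-labelled array. MIR1205 and MIR1206 both lie in PVT1, a long non-coding transcript. MIR1205 had 37.0 on PC3-H, 48.5 on PC3-L, 88.7 on LNCaP and 38.6 on the LNCaP-AI-labelled array (log2 −1.18 in the LNCaP pair). MIR1206 had 39.3, 61.3, 71.0 and 29.2 (log2 −1.26). For both, LNCaP was the highest array and PC3-L the next. MIR29C, one of the miR-29 genes known for repressing collagens, had 31.5, 33.2, 48.0 and 21.7 (log2 −1.11), and MIR4504 had 31.7, 35.2, 52.8 and 21.6 (log2 −1.25). MIR548X2 and MIR548O2, between 20.8 and 50.6, were each past 2-fold in 1 of the 4 pairs, by −1.01 (LNCaP against PC3-H) and −1.06 (LNCaP-AI-labelled array against PC3-L). With a pseudocount of 16, MIR1205, MIR1206, MIR29C, MIR4504, MIR3936, MIR548X2 and MIR548O2 lost these calls, and MIR4653 kept that of the PC3 pair only. MIR548X2 and MIR548O2 lie at the threshold: with each array centred on its median, MIR548X2 was at −0.99, and MIR548O2 came to 1.01 in the PC3 pair.

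The PC3 and LNCaP pairs share no array, so a member can be read in both. The LNCaP-AI-labelled array went against its line label. In the LNCaP pair, a difference of glycan label therefore cannot be told apart from a difference of line. Of 361 members that passed the filter in both pairs, MIR4737 and MIRLET7I were past 2-fold higher in both (0.554%, against 2.20% of all named genes). Lower in both were 0 members (1.06% of all named genes). MIR1299 and MIR548C were higher on PC3-L and lower on the LNCaP-AI-labelled array (0.554%, against 0.335%), and 0 members ran the other way.

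**Figure D3:**
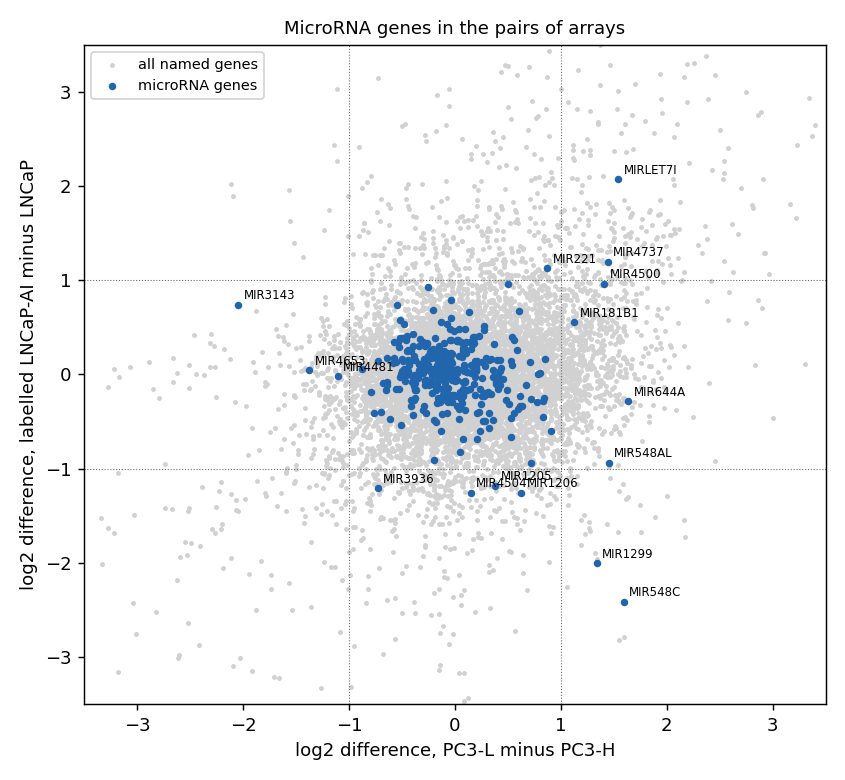
Log2 difference of PC3-L minus PC3-H (x axis) against the LNCaP-AI-labelled array minus LNCaP (y axis), grey for all named genes and blue for the 361 microRNA genes that passed the filter in both pairs, with dotted lines at 2-fold; 62 other genes lie outside the axes. MIRLET7I and MIR4737 lie in the upper right corner and MIR1299 and MIR548C in the lower right.

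Low against high glycan label was also tested by limma over all 4 arrays, adjusting for the line; differences are low minus high. The fit had 1 residual degree of freedom, and the members were not tested on their own. None of 426 members was called at an adjusted p of 0.05, nor was any of 11509 genes (0%). At an unadjusted p under 0.05 limma gave 7 members (1.64%) where 8.81% of all genes tested passed. MIRLET7I had the smallest p of the members, with a log2 difference of 1.81 (SE 0.28, limma adjusted p = 0.24), followed by MIR4737 at 1.32 (SE 0.25, limma adjusted p = 0.28). MIR4500 differed by 1.19 and MIR221 by 1.00, with limma adjusted p of 0.32 and 0.37. With the LNCaP-AI-labelled array counted as PC3, LNCaP is the only array of its line and adds nothing to the difference. That setting compares PC3-H alone with PC3-L and the LNCaP-AI-labelled array, so its calls are not given.

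Most members lie within other genes, which bears on what their probes read. Of the 705, 559 lie inside another gene of the gene table and 146 outside. The strand was the same for 386, with a protein-coding host for 298 and a long non-coding host for 95. A host lay on the opposite strand for 83, and a host's strand was not given for 134. These groups overlap, since a member can lie in several genes. A same-strand host had a named probe for 216 members, in 191 hosts. Host and member levels, as means over the arrays, were nearly unrelated across these 216 pairs (Pearson r = 0.08), and the host was brighter in 173, with medians of 81.1 for hosts and 36.9 for members. Each probe has its own brightness, so these levels are not to be read as amounts of RNA per gene.

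Differences of host and member ran together more than levels did. In the PC3 pair, over 117 members and hosts that both passed the filter, r was 0.50 (Spearman rho = 0.43). In the LNCaP pair, over 114, r was 0.56 with a rho of 0.17, and r was 0.35 without the 2 hosts that differed most. These are correlations across genes, which share arrays and in part a host, and are not independent replicates. Where the host was past 2-fold, the member usually had the same sign, in 11 of 12 (PC3 pair) and 10 of 14 (LNCaP pair). The member was itself past 2-fold in 2 of each.

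Over all these pairs of host and member, the median size of the log2 difference was 0.28 for both members and hosts in the PC3 pair, with the host the larger in 63 of 117. In the LNCaP pair it was 0.20 for members and 0.26 for hosts, with the host the larger in 71 of 114. The member was past 2-fold in 4 and the host in 12 of the 117, against 2 and 14 of the 114. Of all named genes 12.3% (PC3 pair) and 10.6% (LNCaP pair) were past 2-fold. Of all members past the filter 3.27% and 2.83% were. KLF7 and SLIT2 were among the hosts that differed most. KLF7, a Kruppel-like transcription factor, had 64.0 on PC3-H, 471 on PC3-L, 34.4 on LNCaP and 237 on the LNCaP-AI-labelled array, while MIR2355 inside it had 20.4, 40.1, 20.4 and 27.4. SLIT2, a secreted guidance cue, had 242, 111, 33.5 and 281, while MIR218-1 inside it stayed between 45.4 and 56.6. Of 22 measured host transcripts named for a microRNA, 1 of 17 was past 2-fold in the PC3 pair, MIR100HG, beside 12.3% of all named genes. In the LNCaP pair 3 of 19 were, MIR22HG and MIR31HG higher and MIR99AHG lower, beside 10.6% of all named genes.

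**Figure D4:**
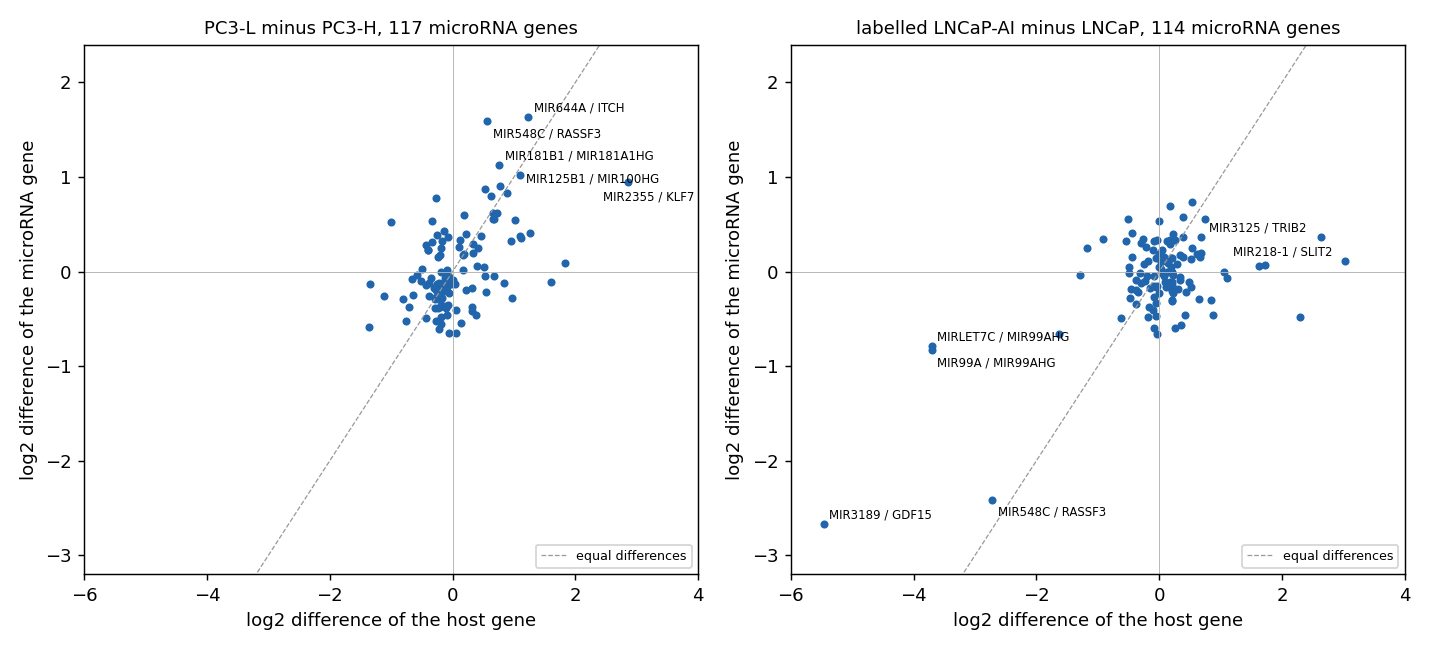
Log2 difference of the host gene (x axis) against that of the microRNA gene inside it on the same strand (y axis), in the PC3 pair (left, 117 points) and the LNCaP pair (right, 114 points), with a dashed line at equal differences. MIR3189 and MIR548C lie low with GDF15 and RASSF3 in the LNCaP pair, and hosts such as KLF7 and SLIT2 differ far more than MIR2355 and MIR218-1.

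Members that lie close together were compared as clusters, with gaps of at most 10 kb. There were 39 clusters of 149 members, 6 of them with 4 or more. In the imprinted region of chromosome 14, 26 members from MIR299 to MIR412 formed 1 cluster and 6 from MIR493 to MIR432 another, with median intensities of 32.6 and 30.7. On chromosome 19, 17 members from MIR512-2 to MIR516B2 and 9 from MIR516B1 to MIR519A2, a cluster known from placenta, had medians of 28.8 and 29.5. No member of a cluster of 4 or more was past 2-fold in any of the 4 pairs. Of all members past the filter 5.40% were, and of all named genes 21.4%. Many clustered members never reached the filter. It was reached on some array by 13 of the 26, 5 of the 17 and 4 of the 9. MIR3689B was close to 2-fold for LNCaP minus PC3-H (log2 0.99). Among the 6 clusters of 4 or more, the widest median difference was that of 6 MIR3689 genes on chromosome 9, with a median log2 difference of 0.64 for LNCaP minus PC3-H. These genes are near-identical copies, so their values are uncertain as values of single genes.

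Intensity went with base composition. Over the 586 members with a hairpin sequence, GC content correlated with mean log2 intensity at r = 0.46 (Spearman rho = 0.51), while hairpin length did not (r = −0.03). Split into 4 GC classes of similar size, from the lowest (24.1% to 44.8% GC) to the highest (59.2% to 77.5% GC), the members had a median intensity of 27.1, 31.6, 40.4 and 59.6. The share reaching the filter on some array was 38.7% in the lowest class and 89.1% in the highest. GC did not go with the range over the arrays (r = −0.04). It went weakly with the difference of PC3-L from PC3-H (r = −0.17, 331 members), whose median was 0.13 in the lowest class and −0.10 in the highest, and with that of the LNCaP-AI-labelled array from PC3-L (r = 0.22, 339 members). The part of base composition in the levels and in these differences was not tested.

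**Figure D5:**
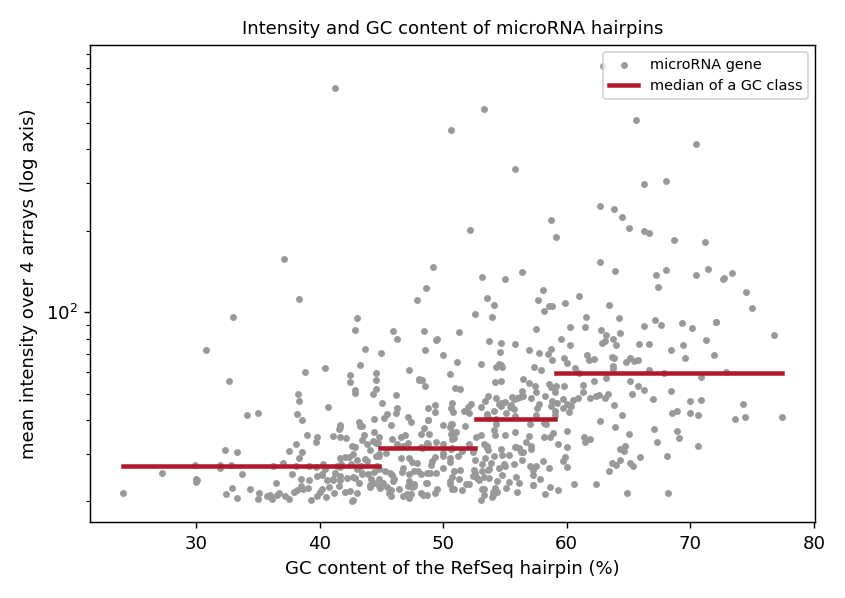
GC content of the hairpin in percent (x axis) against mean intensity over the 4 arrays (y axis, log axis), 1 point per microRNA gene with a hairpin sequence, 586 in all, with red bars at the median of each of 4 GC classes. Median intensity is 27.1 in the class lowest in GC and 59.6 in the highest.

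Across all 705 members the LNCaP-AI-labelled array was most like PC3-H, with r = 0.959 over log2 intensities, followed by PC3-L with 0.941 and LNCaP with 0.927. Over all named genes it was most like PC3-L (0.955), then PC3-H (0.896) and LNCaP (0.850). LNCaP was the least like it in both sets.

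Of 24 listed genes of the machinery that makes microRNAs 14 were measured. Of the 12 past the filter, 1 was past 2-fold in the PC3 pair, where 12.3% of all named genes were, and 0 were in the LNCaP pair, where 10.6% were. DDX17, an RNA helicase of the Drosha complex, had 197 on PC3-H, 460 on PC3-L, 348 on LNCaP and 376 on the LNCaP-AI-labelled array. DGCR8, the partner of Drosha, ran from 62.1 to 89.1 and XPO5, which encodes exportin-5, from 197 to 233. TNRC6A, a partner of Argonaute, had 73.2, 139, 115 and 133 (log2 0.91 in the PC3 pair). HNRNPA1, an RNA-binding protein, had 118, 119, 197 and 99.6 (log2 −0.98 in the LNCaP pair). LIN28A and LIN28B, which block let-7 maturation, stayed between 22.2 and 26.3, below the filter.

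Of 10 listed textbook targets 7 were measured, and 3 (PC3 pair) and 4 (LNCaP pair) were past 2-fold, beside 12.3% and 10.6% of all named genes. ZEB1, a target of the miR-200 family, had 38.2 on PC3-H, 225 on PC3-L, 36.5 on LNCaP and 157 on the LNCaP-AI-labelled array. The miR-200 genes of chromosome 1 were below the filter on all arrays. Those of chromosome 12, MIR200C and MIR141, reached it on LNCaP alone, with 41.2 and 51.1. A relation to ZEB1 was not tested. HMGA2, a target of let-7, had 159, 240, 41.4 and 132. BCL2, a target of miR-15 and miR-16, had 39.97, 101, 42.0 and 86.9, and PDCD4, a target of miR-21, had 79.4, 296, 426 and 148. In the PC3 pair those past 2-fold were ZEB1, BCL2 and PDCD4, all higher. In the LNCaP pair ZEB1, HMGA2 and BCL2 were higher and PDCD4 was lower.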

How the data were processed

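Total RNA from 4 cultures was extracted with ISOGEN II and labelled with biotin by the GeneChip WT Terminal Labeling Kit, per the labels' protocols. The deposited intensity of each probe is linear, judged from its range, and starts at 17.6. Summarisation, background correction and normalization by the authors are not given in the sources used here. The series' design text names GeneSpring GX 12.6. Of 37934 probes, 14952 had 1 gene symbol in the platform annotation, 0 several and 22982 none. All 705 members matched the RefSeq gene table (GRCh38.p14), which gave neighbours and hosts. The probe with the highest mean stood for its gene, and 41 members had several probes.

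Differences were taken on log2(intensity + 1), over genes with either value at or above the 40th percentile of its array, and 2-fold was the threshold. This scale understates the change of dim genes. Members and lists were chosen with earlier results of these data known. Named were the members past 2-fold in any of 4 pairs, the 12 brightest, the 12 widest in range, the measured members of 6 microRNA lists, their hosts, and listed machinery, targets and line markers. Other members were named to complete a family, list or pair with a host, after their values were seen. The glycan label was tested with limma 3.58.1 in R 4.3.3, two-sided with Benjamini-Hochberg adjustment over all genes, after the script was tested on simulated data. Python 3.11.15, numpy 2.4.6, pandas 2.3.3, scipy 1.17.1 and matplotlib 3.10.9 were used. Nothing states that the samples came from separate cultures beyond their labels.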

Additional observations from a re-analysis of the deposited data

Results flagged for a closer look

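The PC3 and LNCaP pairs differed in direction for 2 members, and the difference between the pairs was not tested. MIR1299 was higher on PC3-L than on PC3-H, with a log2 difference of 1.34, and lower on the LNCaP-AI-labelled array than on LNCaP, with −2.004. MIR548C was higher on PC3-L, with 1.59, and lower on the LNCaP-AI-labelled array, with −2.41. Each direction rests on 1 array against 1 array.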

How the results depend on the processing

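With a pseudocount of 16, the members past 2-fold fell from 11 to 5 in the LNCaP pair, from 5 to 3 between the low-glycan arrays and from 9 to 4 between the high-glycan arrays, while the PC3 pair had 9 in place of 13. Among members outside other genes, 3 of 75 (4.00%) were past 2-fold in the PC3 pair and 1 of 73 (1.37%) in the LNCaP pair. Between the low-glycan arrays 2 of 79 (2.53%) were, and between the high-glycan arrays 3 of 73 (4.11%). Of all named genes 12.3%, 10.6%, 2.78% and 9.95% were, in that order. Hosts on either strand or with no strand given yielded r = 0.36 in the PC3 pair, and no filter gave r = 0.45 in the LNCaP pair. Between the high-glycan arrays the 5 higher and 4 lower members became 6 and 3 with each array centred on its median. A filter at the 20th percentile, no filter, quantile normalization and the mean over probes kept each count of members past 2-fold within 1.5 times. In limma 0 members were called in every setting that kept the line labels, with lowest limma adjusted p of 0.23 to 0.44. The median log2 difference of the members lay near 0, and its sign depended on the setting. In the PC3 pair it was −0.05, and 0.002 with each array centred on its median. Among members outside other genes it was 0.08. No setting turned the direction of a member past 2-fold, other than the free-text descriptions of the PC3 arrays. These turn every sign of that pair, to 4 higher and 9 lower. The log2 differences then are 2.04 for MIR3143, 1.37 for MIR4653, 1.20 for MIR205, 1.11 for MIR4481, −1.02 for MIR125B1, −1.12 for MIR181B1, −1.34 for MIR1299, −1.41 for MIR4500, −1.44 for MIR4737, −1.45 for MIR548AL, −1.54 for MIRLET7I, −1.59 for MIR548C and −1.63 for MIR644A. Signal near the lowest values of the table limits the folds of dim members, and the cause of the other shifts was not tested.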
